A study of Mus musculus with 8 samples.

Results

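Hair follicle stem cells (HFSCs) and epidermal stem cells (EpdSCs) of Msx2-knockout mice were set against each other across the transcriptome. The comparison rested on 4 of the 8 bulk RNA-seq libraries of the series, 2 from Msx2-KO HFSCs and 2 from Msx2-KO EpdSCs. Both cell types came from dorsal skin in telogen of 6-month-old mice carrying a neo cassette upstream of the second Msx2 exon in every tissue, so neither cell type was a control for the loss of Msx2. HFSCs were sorted as CD34+, CD49f+ and Sca-1- cells, and EpdSCs as CD34-, CD49f+ and Sca-1+ cells. The 4 WT libraries, from C57BL/6J mice, are given beside the results: WT EpdSCs were also from 6-month-old mice, whereas WT HFSCs were from 2-month-old mice. The members were the 12011 nuclear protein-coding genes found by symbol in both deposited tables, out of 15337 shared symbols, and each value is given in CPM, the count of a gene divided by its library's sum over these genes and scaled to 1000000.

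HFSCs reside in the bulge of the hair follicle, stay quiescent through telogen and give rise to new follicle epithelium when growth begins. EpdSCs form the basal layer of the interfollicular epidermis and produce the suprabasal keratinocytes that build the skin barrier. Transcription factors such as Lhx2, Sox9, Nfatc1 and Tcf7l1 mark the bulge, whereas Krt1 and Krt10 are the keratins that keratinocytes make on leaving the basal layer. Msx2 is a homeobox transcription repressor of skin and hair follicle epithelium.

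The HFSC and EpdSC libraries were deposited in 2 separately normalized tables. Division by each library's own sum cancels any single factor per library. Cell type, table and the library numbering of the deposited columns differ together and cannot be told apart. The Msx2-KO EpdSC libraries are numbered apart from the Msx2-KO HFSC and WT EpdSC libraries, which have adjoining numbers. The WT HFSC columns carry another prefix. The part of this numbering in the results was not tested. The compared genes held 3662000 and 1810300 counts in the Msx2-KO HFSC libraries and the equivalent of 17303900 and 18108800 counts in the Msx2-KO EpdSC libraries. Mitochondrial genes took 56.6% and 62.1% of the deposited table in Msx2-KO HFSCs and 5.13% and 8.22% in Msx2-KO EpdSCs, and their part in the results below was not tested. The WT libraries ranged from 10.5% to 40.9%. Replicates were further apart in the mutant: across genes, Pearson's r of log2(CPM + 1) was 0.640 between the Msx2-KO HFSC libraries and 0.849 between the Msx2-KO EpdSC libraries, against 0.957 and 0.974 within the WT pairs. Each Msx2-KO HFSC library correlated more closely with every WT library, of either cell type, at 0.668 to 0.730, than with the other Msx2-KO HFSC library. With the Msx2-KO EpdSC libraries r was 0.428 to 0.528. Each r was taken over 12011 genes, and genes are no replicates of one another.

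The targeted gene did not separate the genotypes. Msx2 (chr13:53466884-53473074, minus strand, GRCm38) was at 10.9 and 9.94 CPM in Msx2-KO HFSCs and at 6.82 and 1.82 CPM in Msx2-KO EpdSCs, with 16.4 and 4.78 CPM in WT HFSCs and 5.84 and 8.54 CPM in WT EpdSCs. The values are counts over the whole gene, and which part of it the reads covered was not tested. Of the sort markers, Cd34 was listed only in the HFSC table, at 444 and 374 CPM, and Ly6a, which encodes Sca-1, only in the EpdSC table, at 37.5 and 286 CPM. Itga6, which encodes CD49f, was at 305 and 213 CPM in Msx2-KO HFSCs and at 3104 and 2692 CPM in Msx2-KO EpdSCs. These 3 genes encode the sorted proteins and are no finding. The HFSC label was met by Lhx2 but not by Krt15, a bulge keratin, which was at 5560 and 7201 CPM in Msx2-KO HFSCs and higher, at 10443 and 14567 CPM, in Msx2-KO EpdSCs. Krt1 and Krt10 overlapped between the groups.

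No gene passed the test set for the comparison. With limma on log2(CPM + 1) over the 4 libraries, 0 of 12011 genes reached an adjusted p under 0.05 with a fold over 2 (0% in each direction), and the smallest adjusted p was 0.0999. At an unadjusted p under 0.05 there were 1767 genes higher in HFSCs (14.7%) and 1193 higher in EpdSCs (9.93%). When the same test was run on the 9254 genes with a mean of at least 10 CPM, 456 genes were higher in HFSCs (4.93%) and 287 were higher in EpdSCs (3.1%). edgeR's quasi-likelihood test, run on counts recovered from all 12011 genes, called 159 and 82. One fit of all 8 libraries called 2335 (19.4%) and 1249 (10.4%), with a spread that was shared with the tighter WT pairs, and in that fit the WT cell types differed at 163 genes higher in HFSCs (1.36%) and 133 higher in EpdSCs (1.11%). Below, "passed with the filter" refers to the test on genes of at least 10 CPM, and its adjusted p is given. The mean was taken over the 4 Msx2-KO libraries. A gene near 0 in either cell type, such as Ccn2, Lhx2, Grem1 or Il1rn, therefore met the filter only through the group where it was high. The SE printed with a difference between the Msx2-KO groups is from the unfiltered fit of the 4 libraries. That SE and the adjusted p beside it therefore come from different fits, and the p cannot be derived from the SE. The call is lost for every gene when the filter is left out.

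Both libraries of one group lay above both of the other for 4038 genes on the HFSC side (33.6%) and for 2790 genes on the EpdSC side (23.2%). The split depended on scaling. HFSCs were the higher group in 59.1% of these genes by library sum, in 42.7% by median-of-ratios factors, in 39.5% by TMM factors and in 27.2% when noncoding and mitochondrial genes entered the sum. The median log2 difference of all genes, HFSC minus EpdSC, was 0.43, and those 3 scalings shifted it by -0.65, -0.76 and -1.07. List medians are therefore given with the value of 0.43 as their reference, and the direction of a list is read relative to the median of all genes. The medians of the hemidesmosome, infundibulum, TGF-β, WNT, Notch, heat shock, mitosis, DNA replication and oxidative phosphorylation lists fell on either side of 0 over the 5 scalings.

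Promoter sequence is shown for 3 genes that stand for the main patterns, a bulge transcription factor that was higher in HFSCs, a secreted cytokine antagonist that was higher in EpdSCs and a suprabasal keratin that did not separate. Each is the 250 bases before the RefSeq start on GRCm38.p6, 5′ to 3′ on the gene's own strand, from chr2:38339031-38339280 (plus) for Lhx2, chr2:24336610-24336859 (plus) for Il1rn and chr11:99389365-99389614 (minus) for Krt10. Capitals mark matches on either strand to the TATA box TATAAA, the AP-1 type site TGANTCA or the homeodomain core TAATTA.
Lhx2: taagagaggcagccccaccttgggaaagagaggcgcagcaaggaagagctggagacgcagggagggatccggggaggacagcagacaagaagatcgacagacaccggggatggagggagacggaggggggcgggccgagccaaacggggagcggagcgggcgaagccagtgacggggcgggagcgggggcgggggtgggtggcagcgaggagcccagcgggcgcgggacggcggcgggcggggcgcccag
Il1rn: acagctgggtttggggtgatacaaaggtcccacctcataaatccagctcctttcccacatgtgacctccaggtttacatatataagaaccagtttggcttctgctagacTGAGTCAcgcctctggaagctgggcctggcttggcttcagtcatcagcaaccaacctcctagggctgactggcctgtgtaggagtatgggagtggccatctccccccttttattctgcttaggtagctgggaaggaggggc
Krt10: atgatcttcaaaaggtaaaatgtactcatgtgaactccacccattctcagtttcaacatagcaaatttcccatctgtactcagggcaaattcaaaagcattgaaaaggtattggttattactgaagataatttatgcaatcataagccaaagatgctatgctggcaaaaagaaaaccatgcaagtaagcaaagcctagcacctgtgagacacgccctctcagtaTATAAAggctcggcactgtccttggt
The Lhx2 window had a GC content of 72.8% and held none of the 3 motifs, the Il1rn window held TGAGTCA, and the Krt10 window held TATAAA close to its end. Promoters were matched for 9542 of the compared genes. TGANTCA was found in 5.15% of the 2212 matched genes that were higher in both EpdSC libraries, in 3.68% of the 3210 that were higher in both HFSC libraries, in 4.15% of all matched compared genes and in 6.83% of the 27025 promoters of the table. The corresponding shares, in the same order, were 6.6%, 5.45%, 6.2% and 13% for TATAAA and 2.44%, 1.78%, 2.17% and 4.9% for TAATTA. A match is a description of letters and not of a bound site.

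The largest differences towards HFSCs are given first. Ccn2, which encodes a matricellular growth factor (chr10:24595442-24598683), was at 1611 and 1097 CPM in Msx2-KO HFSCs and at 0.116 and 0.994 CPM in Msx2-KO EpdSCs, a log2 difference of 9.80 ± 0.68 (SE, adjusted p = 0.00473 with the filter). Hmcn1, encoding the extracellular matrix protein hemicentin, was at 1639 and 1508 CPM against 0.405 and 3.42 CPM. The lowest HFSC value of either gene was above 1000 CPM and the highest EpdSC value was 3.42 CPM. Lhx2 (chr2:38339281-38369733), whose promoter is printed above, was at 531 and 356 CPM in HFSCs and at 0.289 and 0.884 CPM in EpdSCs, a difference of 8.13 ± 0.88 (adjusted p = 0.0105 with the filter). Ltbp2, an elastic fibre protein named for the latent TGF-β binding protein family, was at 406 and 223 CPM in HFSCs. It was at 0 in both EpdSC libraries, which made it at least 1857-fold higher against a floor of 3 counts per library. Cgnl1, encoding the junction protein paracingulin, was at 762 and 329 CPM in HFSCs, while the EpdSC libraries held 0 and 0.0552 CPM, the latter being 1 count. The other genes described were H1f4, Pdzrn3, Gm973, Tgm5, Gm38394 and Sema3e, and their 2 HFSC libraries lay between 262 and 868 CPM against at most 4.69 CPM in EpdSCs.

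The plot of the largest differences shows that most of these genes were low in WT EpdSCs as well. H1f4, a linker histone, was not, at 392 and 277 CPM in WT EpdSCs, nor was Gm38394, at 365 and 401 CPM, and of the 4 groups both genes were near 0 in Msx2-KO EpdSCs alone. Measured against WT EpdSCs, Msx2-KO HFSCs differed by 1.08 for H1f4 and by 0.05 for Gm38394 on the log2 scale. Gm38394 overlaps Zc3h11a and Zbed6 on the same strand, and H1f4 is a member of a histone gene family, so reads of either may be shared with other genes. For Ccn2, Lhx2, Ltbp2 and Sema3e the difference from WT EpdSCs was 7.37, 7.19, 6.35 and 5.47.

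**Figure D1:**
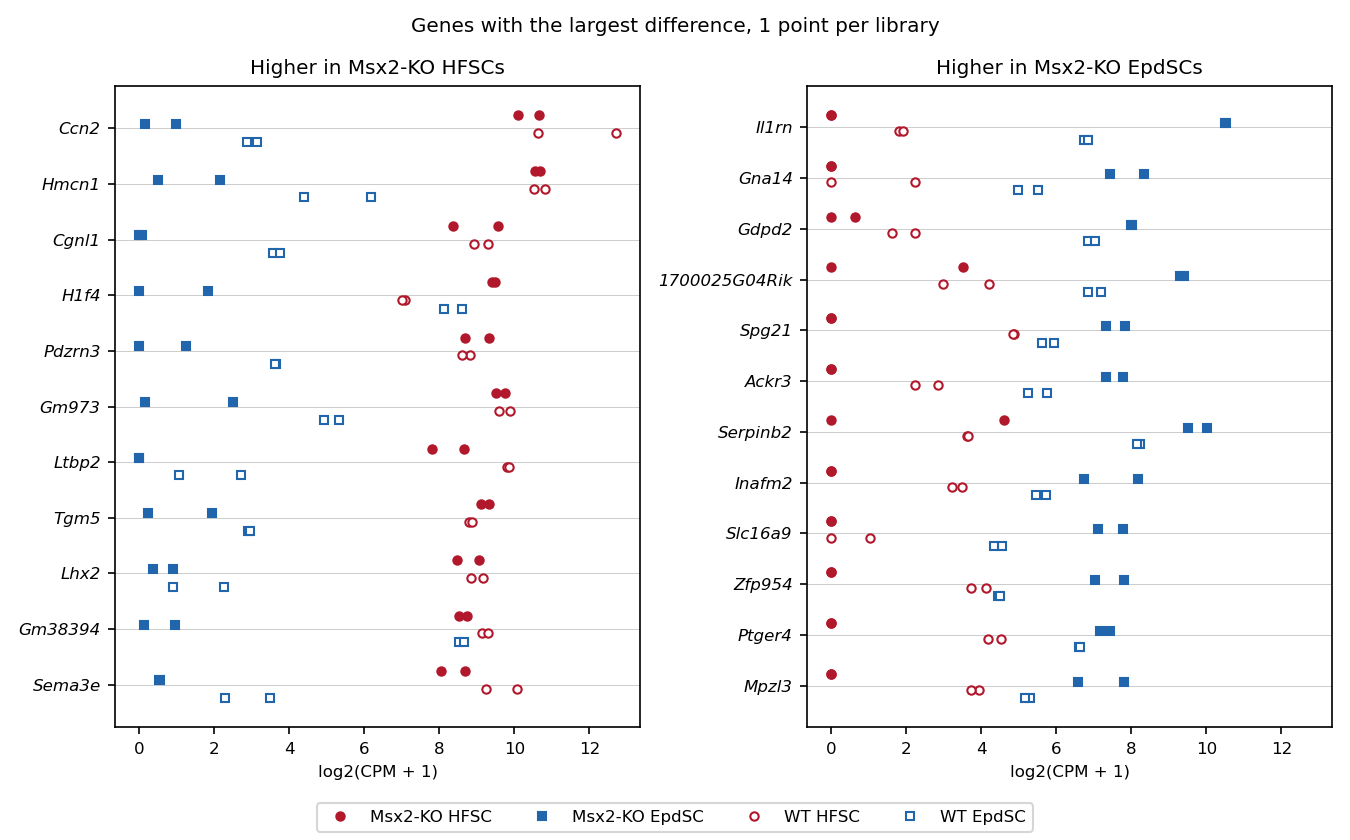
Level of the genes described as having the largest differences, 11 towards HFSCs (left) and 12 towards EpdSCs (right), as log2(CPM + 1) on the x axis, 1 point per library. Filled symbols are Msx2-KO and open symbols WT, circles are HFSCs and squares EpdSCs. In the left panel the Msx2-KO EpdSC libraries lie at 4.69 CPM or below. In the right panel 9 of 12 genes were at 0 in both Msx2-KO HFSC libraries, as were 1070 of all 12011 compared genes.

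Towards EpdSCs, the largest differences included genes that were at 0 in both Msx2-KO HFSC libraries. Il1rn (chr2:24336853-24351494), the interleukin-1 receptor antagonist, was at 1478 and 1439 CPM in Msx2-KO EpdSCs and at 0 in both Msx2-KO HFSC libraries, at least 1178-fold higher against the 3-count floor. WT EpdSCs held 105 and 115 CPM and WT HFSCs 2.48 and 2.73 CPM, so the order of the cell types was the same in WT with a lower EpdSC level. Serpinb2, a serine protease inhibitor of differentiating keratinocytes, was at 724 and 1043 CPM in EpdSCs and at 0 and 23.2 CPM in HFSCs (adjusted p = 0.0195 with the filter). Ackr3, a scavenging chemokine receptor, was at 159 and 217 CPM in EpdSCs and Ptger4, a prostaglandin E2 receptor, at 172 and 141 CPM. Both genes were at 0 in each HFSC library, giving bounds of at least 151.9-fold and at least 126.5-fold. The other genes were Gna14, Gdpd2, 1700025G04Rik, Spg21, Inafm2, Slc16a9, Zfp954 and Mpzl3, at 95 to 674 CPM in EpdSCs and at no more than 10.5 CPM in HFSCs. Spg21, Zfp954, Ptger4 and Mpzl3, all at 0 in both Msx2-KO HFSC libraries, were detected in WT HFSCs at 12.3 to 28.2 CPM.

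Genes of HFSC identity lay almost wholly on the HFSC side. Of 30 listed genes, 24 could be compared, and 22 of them were higher in both HFSC libraries (background 33.6%), with a median log2 difference of 3.20 against 0.43 for all genes. The list was chosen with results of these samples known and is not independent evidence of its direction. With the filter 14 of the 24 passed on the HFSC side and 0 on the EpdSC side (4.93% and 3.1% of all filtered genes). Under the 5 scalings the median relative to all genes stayed between 2.29 and 2.77, and on leaving out each library in turn between 2.47 and 3.21.

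Transcription factors of the bulge were among the genes that passed. Sox9, required to maintain the bulge, was at 929 and 464 CPM in Msx2-KO HFSCs and at 32 and 33.8 CPM in Msx2-KO EpdSCs (4.28 ± 0.51, adjusted p = 0.0111 with the filter). Nfatc1, linked to HFSC quiescence, was at 552 and 514 CPM against 35.4 and 137 CPM, and Nfib, which maintains HFSC gene expression, was at 2016 and 1821 CPM against 190 and 427 CPM. In all of these the lower HFSC library exceeded the higher EpdSC library by over 3-fold. Among receptors and ligands, Lgr5, an R-spondin receptor of cycling follicle cells, was at 217 and 284 CPM against 4.1 and 1.05 CPM. Grem1, a BMP antagonist, was at 248 and 270 CPM against 0.347 and 0.221 CPM, the difference of 7.66 ± 1.05 being the second largest of the list after Lhx2. The WNT modulators Dkk3 and Sfrp1 were at 331 and 294 CPM and at 726 and 651 CPM in HFSCs, and at 29 and 34.1 CPM and 60.04 and 108 CPM in EpdSCs. All 7 genes named here passed with the filter.

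The level of most identity genes in Msx2-KO HFSCs was set apart from WT EpdSCs as well. The list's median was 3.17 for Msx2-KO HFSCs minus WT EpdSCs and 3.04 for WT HFSCs minus WT EpdSCs. Nfix and Cxcl14 did not follow this. Nfix, a nuclear factor I protein, was at 1252 and 1572 CPM in Msx2-KO HFSCs, 28.2 and 182 CPM in Msx2-KO EpdSCs and 970 and 1245 CPM in WT EpdSCs, and Cxcl14, a chemokine of skin epithelium, was at 457 and 810, 9.07 and 26.7, and 304 and 377 CPM. For both genes the Msx2-KO EpdSC libraries were the low ones. Krt15 and Gas1 were the 2 members that were higher in both EpdSC libraries. Gas1, a hedgehog co-receptor, was at 108 and 352 CPM in Msx2-KO HFSCs and 941 and 846 CPM in Msx2-KO EpdSCs (-2.19 ± 0.69, adjusted p = 0.0725 with the filter), although WT EpdSCs held 43.1 and 46 CPM.

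**Figure D2:**
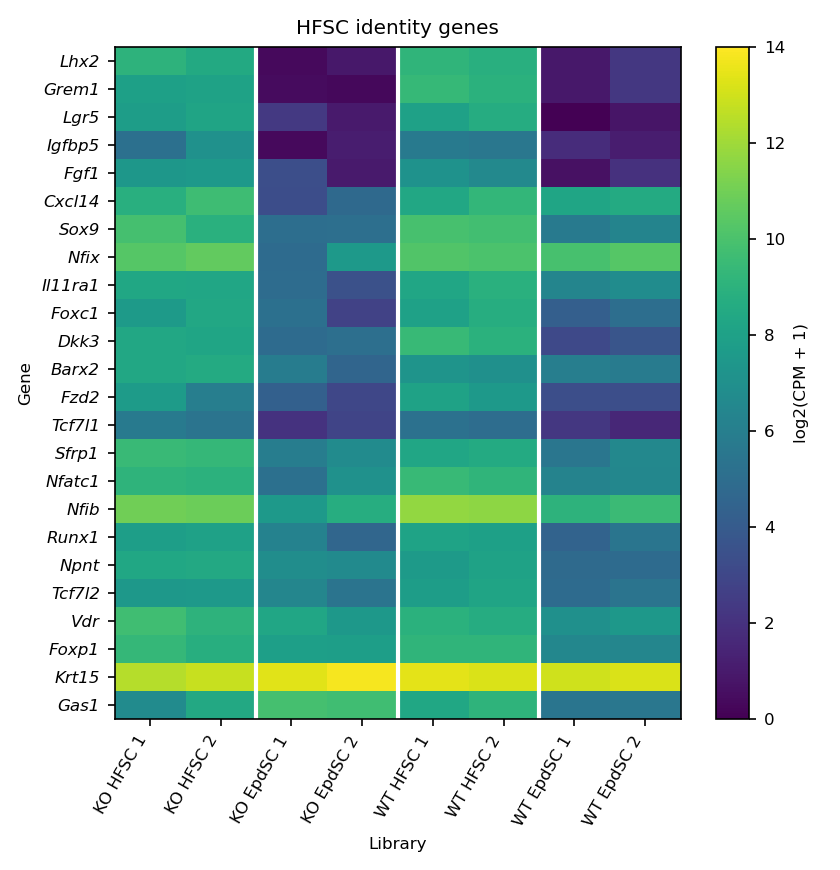
Level of the 24 compared HFSC identity genes (rows, ordered by the difference between the Msx2-KO groups) in the 8 libraries (columns), coloured by log2(CPM + 1). All rows except Krt15 and Gas1 are higher in both Msx2-KO HFSC libraries than in both Msx2-KO EpdSC libraries, and Nfix and Cxcl14 are low only in Msx2-KO EpdSCs.

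Matrix genes of the follicle niche were also higher in HFSCs. Of 11 compared genes, 10 were higher in both HFSC libraries (33.6% of all genes) and the median difference was 4.46 (0.43 for all genes), against 3.58 in WT. Postn, encoding periostin, was at 2875 and 3312 CPM in Msx2-KO HFSCs and 489 and 682 CPM in Msx2-KO EpdSCs (2.42 ± 0.56, adjusted p = 0.0287 with the filter). In WT the corresponding libraries held 7001 and 5725 CPM and 45.6 and 48.8 CPM. The difference between cell types was thus smaller in the mutant, by 4.62 on the log2 scale (adjusted p = 0.007, limma over 8 libraries). WT HFSCs were from 2-month-old mice, so genotype, age and library numbering cannot be told apart on the HFSC side of this contrast. The calls of this contrast rested on the WT pairs, as given below. Col4a2, a basement membrane collagen, was at 134 and 398 CPM against 2.48 and 3.53 CPM and passed with the filter (adjusted p = 0.0195). Sparc, another matricellular gene, was at 49.2 and 264 CPM against 247 and 228 CPM, and its groups overlapped. These genes are also used as markers of dermal cells. Of 10 fibroblast markers, 6 were in the HFSC table with a summed level of 76.5 and 274 CPM in Msx2-KO HFSCs. Col5a1 was at 0 and 237 CPM, Col1a2 at 49.97 and 13.8 CPM, Col1a1 at 17.7 and 18.2 CPM and Pdgfra at 0 in both libraries. Thy1, the single fibroblast marker in the EpdSC table, was at 5.73 and 0 CPM in Msx2-KO HFSCs and at 102 and 83.4 CPM in Msx2-KO EpdSCs. The part of dermal cells in the matrix values was not tested. In bulk samples fewer cells of a type and less RNA per cell cannot be told apart.

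Basal keratinocyte genes lay towards EpdSCs without moving as a whole. Of 14 compared genes, 7 were higher in both EpdSC libraries (background 23.2%) and 1 in both HFSC libraries (background 33.6%). The median difference was -0.79. Krt14, the type I basal keratin, was at 2154 and 1919 CPM in Msx2-KO HFSCs and at 17797 and 22547 CPM in Msx2-KO EpdSCs (-3.30 ± 1.05, adjusted p = 0.0158 with the filter). Its partner Krt5 was at 3853 and 3910 CPM against 6327 and 10807 CPM and did not pass (adjusted p = 0.219). The basal regulator Trp63, at 1389 and 1110 CPM against 2059 and 1080 CPM, overlapped between groups. Igfbp3, which binds insulin-like growth factors, was at 0 and 56.9 CPM in HFSCs and 738 and 1068.5 CPM in EpdSCs and passed (adjusted p = 0.0386), and Mt2, a metallothionein, passed in the same direction (adjusted p = 0.0482). Thbs1, encoding thrombospondin-1, was the member that was higher in HFSCs (3.77 ± 0.59, adjusted p = 0.0193).

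Suprabasal genes, which set WT EpdSCs far apart from WT HFSCs, did not set the Msx2-KO cell types apart in one direction. Of 27 compared genes, 9 were higher in both HFSC libraries, 5 were higher in both EpdSC libraries and 13 overlapped, shares near the 33.6% and 23.2% of all genes. The median difference was 1.47, whereas in WT it was -2.87. Without the second Msx2-KO HFSC library the median was -0.43, so the direction in the mutant rested on that library. Krt10 was at 1012 and 4230 CPM in Msx2-KO HFSCs and 741 and 2518 CPM in Msx2-KO EpdSCs, with 80.8 and 39.4 CPM in WT HFSCs and 15851 and 10793 CPM in WT EpdSCs. Krt1 was at 614 and 2470 CPM against 865 and 3196 CPM in the mutant, and at 47.4 and 17.1 CPM against 9926 and 7603 CPM in WT. The mutant groups overlapped for both keratins, and the sign of the Krt10 difference (0.60 ± 1.07) turned to -0.42 with TMM factors, -0.29 with median-of-ratios factors and -0.96 with the sum over all genes of both tables. The cell type difference itself differed between genotypes, by 8.43 ± 1.14 for Krt10 (adjusted p = 0.0147) and by 7.77 ± 1.20 for Krt1 (adjusted p = 0.0207). Genotype and age cannot be told apart on the HFSC side of this test, since WT HFSCs were from 2-month-old mice. Library numbering runs with genotype on both sides.

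Within the suprabasal list the genes were divided. Krt77, Krtdap and Dsg1a had a higher mean in Msx2-KO EpdSCs, as in WT, but none passed: Krt77, a suprabasal keratin, was at 325 and 2300 CPM in HFSCs and 5118 and 1686 CPM in EpdSCs. Serpinb2, described above, passed on the EpdSC side. Calml3, a calmodulin-like protein, passed on the HFSC side, at 337 and 399 CPM against 1.33 and 2.37 CPM (7.04 ± 0.75, adjusted p = 0.0108 with the filter), and was likewise higher in WT HFSCs than in WT EpdSCs. The cornified envelope genes Flg, encoding filaggrin, and Ivl, encoding involucrin, were at 38.5 and 107 CPM and at 42.3 and 34.8 CPM in Msx2-KO HFSCs. In Msx2-KO EpdSCs both stayed below 1 CPM, and neither passed with the filter (adjusted p = 0.0597 and 0.101). Ivl in WT EpdSCs was at 43.3 and 23.2 CPM, about the level in Msx2-KO HFSCs. Barrier lipid genes were similarly divided. Of 15 compared, 3 were higher in both HFSC libraries and 6 in both EpdSC libraries (33.6% and 23.2% of all genes). Abca12, the keratinocyte lipid transporter, passed on the HFSC side (138 and 166 against 8.03 and 15.96 CPM, adjusted p = 0.042), and Elovl4, which elongates very long-chain fatty acids, passed on the EpdSC side (6.83 and 50.3 against 383 and 343 CPM, adjusted p = 0.0355). Of 18 transcription factors of differentiation, 5 were higher in both HFSC libraries and 7 in both EpdSC libraries (33.6% and 23.2% of all genes). Cebpb passed on the HFSC side, as did Barx2, which is also counted with HFSC identity, and Tfap2c passed on the EpdSC side, at 0 and 40.9 CPM in HFSCs against 816 and 510 CPM.

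Some genes of the infundibulum, and the compared sebocyte markers, were higher in both Msx2-KO HFSC libraries than in both Msx2-KO EpdSC libraries. Krt79, a keratin of the infundibulum and of sebaceous ducts, was at 1464 and 1383 CPM in Msx2-KO HFSCs and 183 and 61.2 CPM in Msx2-KO EpdSCs (3.74 ± 0.65, adjusted p = 0.0168 with the filter), with 195 and 265 CPM in WT EpdSCs and 37.2 and 11.6 CPM in WT HFSCs. The cystatin gene Cst6 was at 410 and 82.3 CPM against 2.02 and 7.34 CPM and the defensin gene Defb6 at 159 and 97.2 CPM against 0.867 and 0.718 CPM. Both passed with the filter, as did Fst, which is described with the TGF-β pathway. Of the 13 genes of the upper follicle, 8 were higher in both HFSC libraries and 3, Plet1, Klk10 and Teddm3, in both EpdSC libraries (33.6% and 23.2% of all genes), with a median of 1.24; the relative median stayed above 0 under all 5 scalings, from 0.43 to 0.81. All 5 compared sebocyte markers were higher in both HFSC libraries (33.6% of all genes), and 4 passed with the filter (4.93% of all filtered genes). Far2, which makes wax alcohols, was at 288 and 125 CPM against 0 and 2.31 CPM, and Plin2, a lipid droplet protein, was at 163 and 201 CPM against 0.347 and 6.46 CPM. Scd1, a fatty acid desaturase, was at 2447 and 1978 CPM against 1065 and 819 CPM, did not pass (adjusted p = 0.139), and turned to the EpdSC side (-0.32) when noncoding and mitochondrial genes entered the sum. In the HFSC table, 10 of the 12 sebocyte markers were listed, with a summed level of 3646 and 2913 CPM in Msx2-KO HFSCs and 187 and 209 CPM in WT HFSCs. Pparg, the sebocyte regulator, was at 42.1 and 21.5 CPM in Msx2-KO HFSCs and at 0.929 and 2.05 CPM in WT HFSCs. The share of sebaceous or infundibular cells in the sort was not tested.

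**Figure D3:**
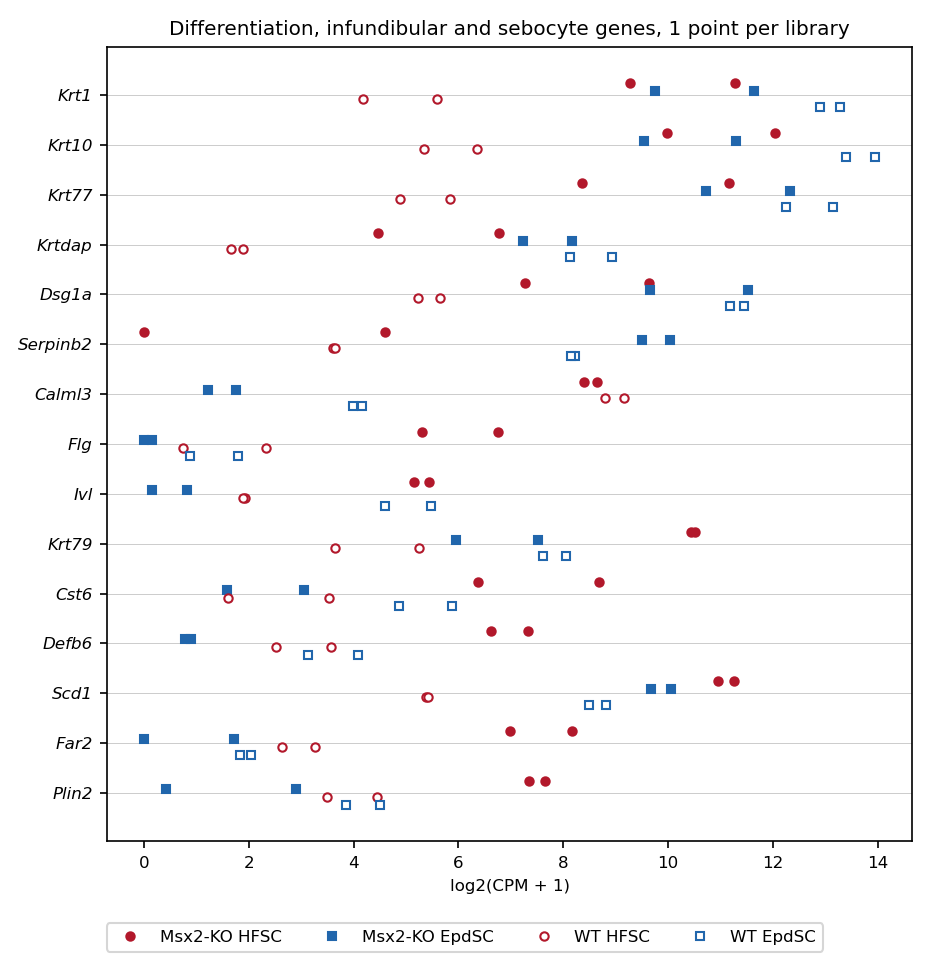
Level of 15 suprabasal, infundibular and sebocyte genes as log2(CPM + 1) on the x axis, 1 point per library, with filled symbols for Msx2-KO and open symbols for WT. Krt1 and Krt10 lie at opposite ends in the WT cell types and overlap in the mutant, and Krt79, Cst6, Defb6, Far2 and Plin2 are highest in the Msx2-KO HFSC libraries.

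Hemidesmosome and basement membrane genes lay slightly towards HFSCs, and the members that passed on that side were low in Msx2-KO EpdSCs. Of 19 compared genes, 10 were higher in both HFSC libraries and 4 in both EpdSC libraries (33.6% and 23.2% of all genes), with a median of 0.93. The median turned to -0.07 with TMM factors and to -0.59 when all genes of both tables entered the sum, and ran from 0.42 to 1.75 on leaving out 1 library, the lowest without the first and the highest without the second Msx2-KO EpdSC library. Dst, encoding the plakin dystonin, was at 8691 and 9738.5 CPM in Msx2-KO HFSCs and 890 and 594 CPM in Msx2-KO EpdSCs (3.66 ± 0.71, adjusted p = 0.0111 with the filter). Plec, encoding plectin, was at 5604 and 4549 CPM against 8.03 and 320 CPM (adjusted p = 0.0287 with the filter), and WT EpdSCs held 6225 and 9442 CPM. Itgb4, the hemidesmosomal integrin chain, was at 563 and 631 CPM against 8.32 and 94 CPM, and Lama5 and Lamb1, which encode laminin chains, and Tln1, encoding talin, also passed. Plec, Itgb4, Lama5, Tln1, Dst and Lamb1 in Msx2-KO HFSCs differed from WT EpdSCs by -0.60, -0.60, 0.62, 0.07, 0.49 and 3.62. Itga6 was the member that passed on the EpdSC side. Col17a1, the hemidesmosomal collagen, was at 4367 and 4717 CPM against 1217 and 6125 CPM and overlapped, its sign turning with scaling and with the library left out. Itgb1 did not pass.

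Transcript length and base composition moved with the comparison. Across 11840 genes with both values, the median difference went from -0.10 in the fifth of genes with the shortest transcripts to 1.23 in the fifth with the longest, of at least 5366 bases. By GC content the median went from 0.15 in the fifth with the lowest share to 0.95 in the fifth with the highest. For Msx2-KO HFSCs minus WT EpdSCs, the fifth with the longest transcripts had a median of 0.06 and the fifth with the highest GC content -0.48. These values accompany every long gene named here, including Hmcn1 (17908 bases), Dst (23279 bases) and Plec (15455 bases), and their part in the results was not tested. With the trends of length and GC removed, an alternative added after the data were seen, the unfiltered test called 144 genes higher in HFSCs and 207 higher in EpdSCs.

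**Figure D4:**
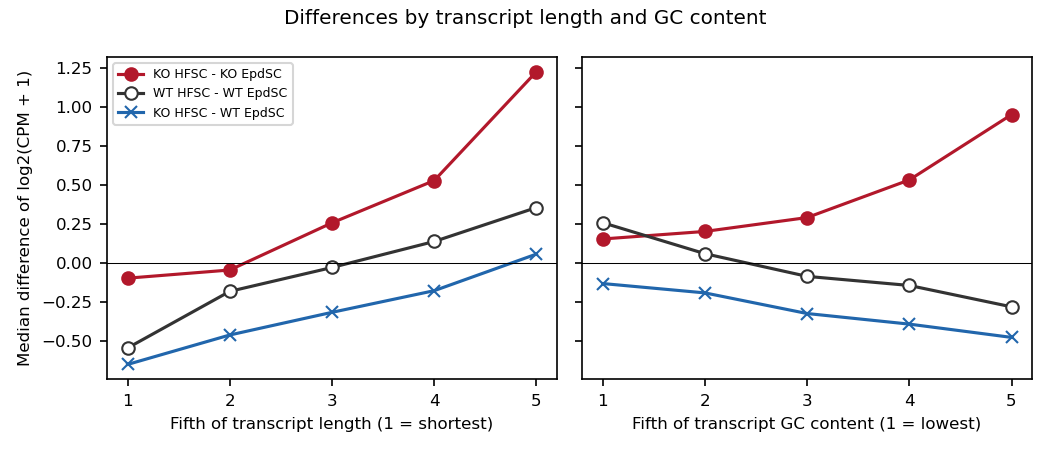
Median difference of log2(CPM + 1) on the y axis for genes divided into 5 equal parts by transcript length (left) and by transcript GC content (right). Red filled circles are Msx2-KO HFSCs minus Msx2-KO EpdSCs, open circles the WT difference and crosses Msx2-KO HFSCs minus WT EpdSCs; the red line ends at 1.23 for the longest transcripts, where the crosses end at 0.06.

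Desmosome and junction genes divided by gene. Of 23 compared genes, 4 were higher in both HFSC libraries and 9 in both EpdSC libraries (33.6% and 23.2% of all genes), with a median of -0.15. Perp, a desmosomal membrane protein, was at 1256 and 1482 CPM in Msx2-KO HFSCs and 12231 and 13659 CPM in Msx2-KO EpdSCs (-3.24 ± 0.86, adjusted p = 0.0149 with the filter). Dsp, encoding desmoplakin, passed on the opposite side, at 8242 and 11730 CPM against 597 and 554 CPM (adjusted p = 0.00958 with the filter), whereas WT EpdSCs held 16917 and 18298 CPM. The desmosomal cadherin gene Dsc3 (1434 and 1943 against 10811 and 5226 CPM) and Jup, encoding plakoglobin (258 and 508 against 1894 and 933 CPM), were higher in both EpdSC libraries and did not pass (adjusted p = 0.0557 and 0.0842).

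TGF-β and BMP signalling works through ligands, serine/threonine kinase receptors and SMAD proteins that carry the signal to the nucleus. Some LTBP proteins hold TGF-β ligands latent in the matrix. Of 31 compared genes of the pathway, 11 were higher in both HFSC libraries and 6 in both EpdSC libraries, near the shares of all genes (33.6% and 23.2%), with a median of 0.53 (-0.17 to 0.10 relative to all genes under the 5 scalings). All 4 compared latent binding proteins and secreted antagonists, Ltbp1, Ltbp3, Fst and Grem1, were higher in both HFSC libraries and passed with the filter. Of all filtered genes, 4.93% passed on the HFSC side and 3.1% on the EpdSC side. Grem1 is also counted with HFSC identity. Ltbp2, which is counted with the niche matrix and not here, was higher in both HFSC libraries and passed too. Ltbp3 was at 585 and 438 CPM against 8.14 and 14.4 CPM (5.42 ± 0.54, adjusted p = 0.0108), and Fst, encoding the activin-binding protein follistatin, was at 316 and 455 CPM against 15.3 and 19.7 CPM (4.37 ± 0.49, adjusted p = 0.014). Among 7 ligands, 3 were higher in both HFSC libraries and 4 overlapped, and Tgfb3 passed, at 189 and 130.4 CPM against 0.289 and 2.485 CPM (adjusted p = 0.0264). Of 8 receptors, 1 was higher in both HFSC libraries and 4 in both EpdSC libraries, and 0 passed. Of 6 SMAD genes, Smad4, the common mediator, passed on the EpdSC side, at 56.3 and 28.7 CPM against 296 and 1090 CPM (-3.79 ± 0.80, adjusted p = 0.0264). The BMP target Id1 was at 0 and 44.2 CPM against 107 and 108.5 CPM (adjusted p = 0.15).

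WNT genes are given by role. WNT ligands bind Frizzled receptors with the co-receptors Lrp5 and Lrp6 and stabilise β-catenin, and R-spondin receptors of the Lgr family strengthen the signal. Of 6 compared ligands, 0 were higher in both HFSC libraries and 5 in both EpdSC libraries (33.6% and 23.2% of all genes). The median difference of the ligands was -4.25, against -2.15 in WT. Wnt3 was at 0 and 27.1 CPM in HFSCs and 134 and 312 CPM in EpdSCs, and Wnt4 was at 0 and 61.9 CPM against 248 and 218.8 CPM. None of the ligands passed with the filter (adjusted p = 0.0703 for Wnt3 and 0.102 for Wnt4), and Wnt5a, Wnt7a and Wnt10a had values of 0.103, 0.149 and 0.282. Of 11 receptors and co-receptors, 9 were higher in both HFSC libraries and 1 in both EpdSC libraries. On the HFSC side 5 passed, against 4.93% of all filtered genes. The median was 3.29, against 2.37 in WT. Fzd7 was at 448 and 324 CPM against 6.01 and 10.9 CPM (5.38 ± 0.59, adjusted p = 0.0111), and Lrp5 was at 186 and 300 CPM against 2.196 and 6.295 CPM (5.62 ± 0.84, adjusted p = 0.0193). Lrp6, Fzd1 and Lgr5 also passed. Of 4 secreted inhibitors, 2 were higher in both HFSC libraries and 2 in both EpdSC libraries, and Sfrp1 and Dkk3 passed on the HFSC side. Both are also counted with HFSC identity, as are Lgr5, Fzd2, Tcf7l1 and Tcf7l2. Over the whole pathway, 17 of 32 genes were higher in both HFSC libraries and 11 in both EpdSC libraries (33.6% and 23.2% of all genes). The pathway's median was 1.11. Of 12 Notch pathway genes, 7 were higher in both HFSC libraries and 2 in both EpdSC libraries (33.6% and 23.2% of all genes). The receptor gene Notch2 and the ligand gene Jag1 passed with the filter (adjusted p = 0.0381 and 0.0473). Notch2 was at 159 and 262 CPM in Msx2-KO HFSCs and 25.2 and 9.94 CPM in Msx2-KO EpdSCs, with 351 and 284 CPM in WT EpdSCs.

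Immediate early genes, which respond within minutes to stimuli including tissue dissociation, had 4 members that passed, all on the EpdSC side. Of 18 compared genes, 5 were higher in both HFSC libraries and 5 in both EpdSC libraries, near the shares of all genes (33.6% and 23.2%), with a median of -0.30. The 4 that passed were of 17 that met the filter, against 3.1% of all filtered genes on that side. Fos was at 18.02 and 12.7 CPM in Msx2-KO HFSCs and at 1420 and 1966 CPM in Msx2-KO EpdSCs (-6.69 ± 0.45, adjusted p = 0.00473), with 126 and 1823 CPM in WT HFSCs and 95.2 and 305 CPM in WT EpdSCs. Dusp1, a phosphatase of MAP kinases, was at 24 and 64.1 CPM against 596 and 3023 CPM, and Ier2 and Klf6 were the other genes that passed. The WT HFSC libraries differed from each other by over 10-fold for Fos. Heat shock genes, with 15 compared, had 7 genes higher in both HFSC libraries, 2 in both EpdSC libraries and a median of 0.48; the co-chaperone gene Bag3 passed on the HFSC side.

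Proliferation genes were divided. Mki67 was at 1052 and 615 CPM in Msx2-KO HFSCs and 0.347 and 24.1 CPM in Msx2-KO EpdSCs (7.12 ± 1.51, adjusted p = 0.0194 with the filter), with 58.8 and 82.5 CPM in WT HFSCs and 251 and 206 CPM in WT EpdSCs. Cenpf, a centromere protein, passed in the same direction (171 and 283 against 10.4 and 13.2 CPM, adjusted p = 0.0232), and Top2a was at 179 and 231 CPM against 24.7 and 45.7 CPM (adjusted p = 0.0599). Ube2c and Ccnb1, which act at the exit from and entry into mitosis, had higher values in both EpdSC libraries, with Ube2c at 59.5 and 33.7 CPM against 201 and 137.5 CPM. Of 20 genes, 8 were higher in both HFSC libraries and 2 in both EpdSC libraries (33.6% and 23.2% of all genes), and the median was 0.43, as for all genes. The transcripts of Mki67 and Cenpf are 10061 and 11130 bases long and that of Ube2c 2191 bases. With the length and GC trend removed, the list's median was 0.92. The part of length in these values was not tested. The summed level of the list was 2213 and 1865 CPM in Msx2-KO HFSCs, 821 and 700 CPM in Msx2-KO EpdSCs and 193 and 213 CPM in WT HFSCs. Of 21 DNA replication genes, 7 were higher in both HFSC libraries, 4 in both EpdSC libraries and 0 passed. Of 16 genes of the p53 pathway and cell cycle inhibitors, 3 and 5 were, and Trp53, Ccng1 and Sesn2 passed on the EpdSC side (3.1% of all filtered genes). Sesn2, a stress-induced sestrin, was at 0 in both HFSC libraries and at 133 and 119 CPM in EpdSCs, at least 101.7-fold higher against the 3-count floor, which covers counting error only.

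The remaining lists had few passing genes, and their counts are to be read against 33.6% of all genes higher in both HFSC libraries and 23.2% higher in both EpdSC libraries. Of 10 compared hair germ and shaft genes, 6 were higher in both HFSC libraries and 1 in both EpdSC libraries. Krt17 was at 1582 and 1553 CPM in Msx2-KO HFSCs and 3.53 and 38 CPM in Msx2-KO EpdSCs (6.88 ± 1.11, adjusted p = 0.0108 with the filter), with 298.5 and 248.7 CPM in WT EpdSCs, and Tchh, encoding trichohyalin, passed in the same direction (adjusted p = 0.019). Of 14 MHC class I and interferon genes, 3 and 2 were higher in both HFSC and both EpdSC libraries, and 0 passed; H2-K1 was at 945 and 1010 CPM against 5186 and 2721 CPM (adjusted p = 0.0622). Of 23 nuclear genes of oxidative phosphorylation, 8 and 4 were, and 0 passed, with Cox6c at 392 and 466 CPM against 143 and 42.1 CPM. Immune markers were near 0: 6 of the 7 in the HFSC table were at 0 in both Msx2-KO HFSC libraries, and the 10 in the EpdSC table summed to 1.16 and 1.1 CPM in Msx2-KO EpdSCs. Cd74 was the exception in HFSCs, at 50.5 and 27.1 CPM. Of the endothelial and pericyte markers Cspg4 was at 419 and 340 CPM in Msx2-KO HFSCs against 0.231 and 9.94 CPM, while Vwf, Tek, Rgs5 and Pdgfrb were at 0 in both Msx2-KO HFSC libraries. Of the melanocyte and Schwann cell markers, 9 were in the HFSC table and summed to 325 and 145 CPM in Msx2-KO HFSCs with Tyrp1, Pmel and Kit at 0, Dct at 122 and 37.6 CPM, Mitf at 106.5 and 90.6 CPM and Sox10 at 66.1 and 1.1 CPM, and the 2 in the EpdSC table summed to 1.21 and 21.3 CPM in Msx2-KO EpdSCs. Muscle markers summed to 84.7 and 40.3 CPM in Msx2-KO HFSCs, over 6 genes, and to 0.694 and 1.05 CPM in Msx2-KO EpdSCs, over 3. The single erythrocyte marker in the HFSC table, Alas2, was at 0 in both.

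**Figure D5:**
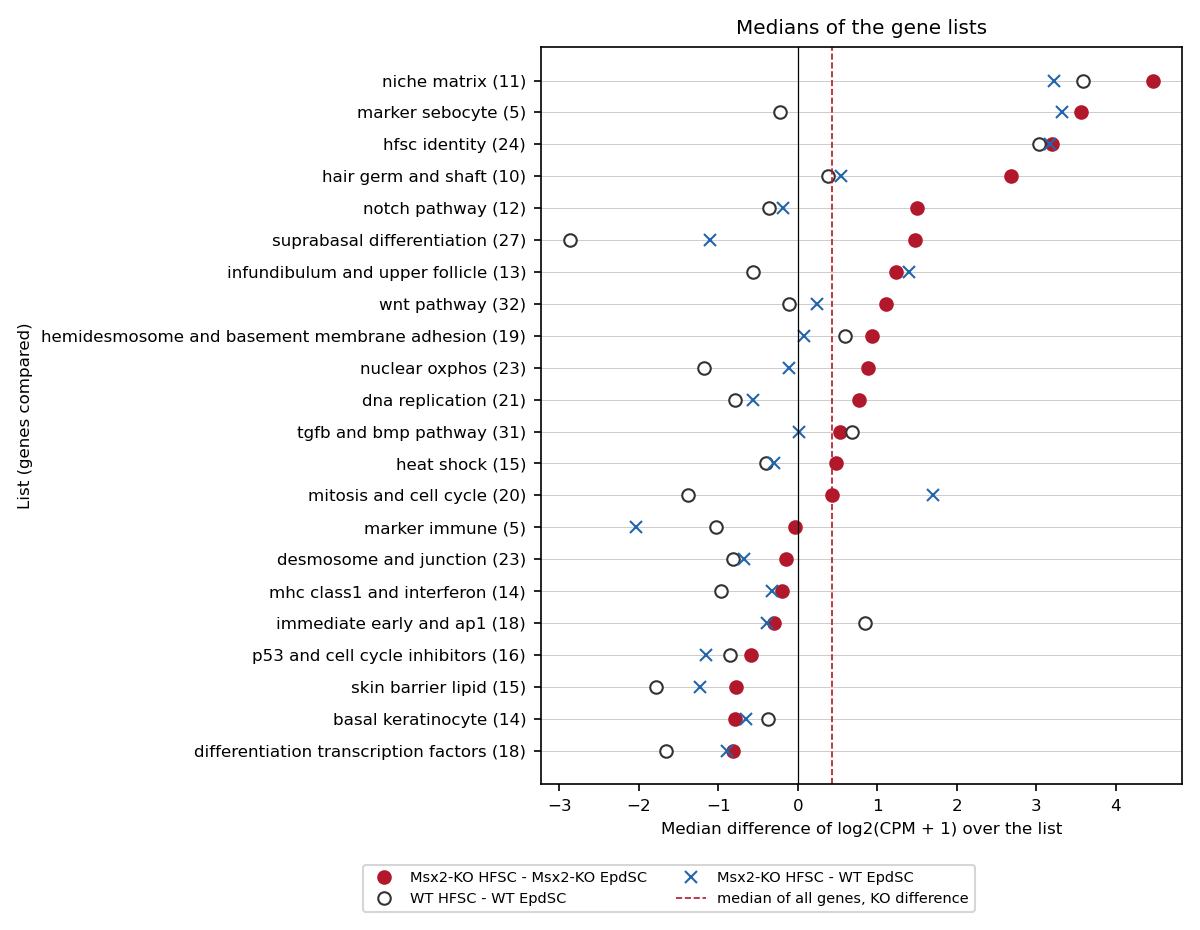
Median difference of log2(CPM + 1) on the x axis for each list of 5 or more compared genes (number in brackets): filled circles are Msx2-KO HFSCs minus Msx2-KO EpdSCs, open circles WT HFSCs minus WT EpdSCs and crosses Msx2-KO HFSCs minus WT EpdSCs. The dashed line is the median of all genes, 0.43; HFSC identity has close values in all 3 comparisons, while the suprabasal list goes from -2.87 in WT to 1.47 in the mutant.

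The difference between the cell types was itself compared between genotypes across all genes. In one limma fit of the 8 libraries, 576 genes had a higher HFSC-minus-EpdSC difference in the mutant than in WT (4.8%) and 220 had a lower one (1.83%), at an adjusted p under 0.05 and a difference over 1 on the log2 scale. The count rested on the WT pairs: without any one of the 4 WT libraries it was 0 to 4 genes, and without any one of the 4 Msx2-KO libraries 1251 to 2955. Of the 27 suprabasal genes, 10 were among the higher and 0 among the lower. Of 24 HFSC identity genes, 1 was higher and 2 were lower. Of the 5 sebocyte markers, 4 were higher. Genotype is confounded with age on the HFSC side, and with library numbering on both the HFSC and the EpdSC side. The part of age and of numbering was not tested.

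Genes absent from one table could not be compared. The HFSC table held 3939 further nuclear protein-coding genes, which took 1.18% and 1.95% of such counts in the Msx2-KO HFSC libraries. By mean level, Il31ra, an interleukin-31 receptor subunit, was the highest of them at 600.2 and 728 CPM, followed by Cd34 and by Tbx1, a bulge transcription factor, at 226 and 484 CPM. No level in EpdSCs is given for these genes.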

How the data were processed

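Total RNA of sorted cells was made into stranded libraries (SMARTer kit v3), sequenced on a NovaSeq and, per the labels and the study's methods, aligned with STAR 2.7.3a in Partek Flow to GRCm38 (mm10). The authors deposited estimated counts per gene for HFSCs, reads matching several genes being split into fractions. For EpdSCs the authors deposited a count-like signal, namely estimated counts divided by 1 factor per library, which was found from the steps between low values (72.6% to 82.1% of values under 1000 counts were whole within 0.01). Genes whose highest value was about 10 or less were absent from the EpdSC table. The counting tool and strand setting are not given in the sources used here. The authors' own fold changes and p-values, for Msx2-KO against WT, were not used.

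Each library was divided by its sum over 12011 joined nuclear protein-coding genes and scaled to 1000000 (CPM). The main test was limma (3.58.1, R 4.3.3) with an intensity trend on log2(CPM + 1) of the 4 Msx2-KO libraries, two-sided, with Benjamini-Hochberg adjustment over all genes and calls at an adjusted p under 0.05 and a fold over 2. A fit of all 8 libraries gave the difference of the cell type differences. The EpdSC signal is not a count, so edgeR (4.0.16) on the recovered counts served as an alternative only. Run on simulated counts, the test of 4 libraries called most changed genes where the simulated spread between replicates was low and called no gene where it was high. An exact permutation test of 2 against 2 libraries cannot go below 0.333 and was not run. Fold changes on the log2(CPM + 1) scale understate those of low genes. A bound for a gene at 0 in a group used 3 counts per library as the floor, which was 0.819 and 1.66 CPM in Msx2-KO HFSCs and 0.173 and 0.166 CPM in Msx2-KO EpdSCs and covers counting error only. The floor was thus higher in Msx2-KO HFSCs. Of the compared genes, 2897 and 1747 were at 0 in the Msx2-KO HFSC libraries. In the second WT HFSC library, which held 1465960 counts, 269 were at 0. The source of these zeros was not tested.

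Members, gene lists and tests were chosen with earlier results of these data known. Genes were named as the targeted gene and the markers, the 12 largest non-overlapping differences in each direction (mean of at least 100 CPM, libraries within 3-fold), and, in 3 lists, the members of highest level. Since the main test called no gene, list members that passed with a mean of at least 10 CPM, and the others named, were chosen after their values were seen. The sources do not say whether a library held 1 animal or several, so p-values measure the spread between libraries, which may be technical. Alternatives were other pseudocounts, filters, scalings, tests, a replicate block, leaving out each library and, added later, removal of the length and GC trend. Promoters were taken from RefSeq by symbol, the entry nearest to the gene's start. A few of the genes that the rule or the lists held are not reported here.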

Additional observations from a re-analysis of the deposited data

Results flagged for a closer look

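The items below are genes named in the report whose difference between HFSCs and EpdSCs was not the same in Msx2-KO and in WT mice, by limma's test of the difference of differences over 8 libraries (adjusted p under 0.05). Each value is the mutant difference minus the WT difference on the log2 scale. WT HFSCs were from 2-month-old mice and the other groups from 6-month-old mice, so genotype and age are confounded on the HFSC side. Genotype and library numbering cannot be told apart on either side. Values of genes at 0 depend on the 1 CPM added. Without any one WT library no more than 4 genes were called in all.

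Suprabasal, barrier and follicle genes had positive values. They were 8.43 for Krt10, 7.77 for Krt1, 5.76 for Flg, 7.93 for Ivl and 8.22 for Abca12. In the upper follicle and sebocyte lists the values were 7.12 for Krt79, 8.01 for Cst6, 6.70 for Defb6, 3.62 for Fasn, 5.70 for Far2, 6.06 for Plin2 and 4.48 for Scd1. Krt17 had a value of 6.44.

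Adhesion and junction genes went in both directions. Positive values were found for Lama5 (4.82), Lamb1 (5.48), Tln1 (5.91), Dsp (4.28) and Cgnl1 (3.48), and negative ones for Itga6 (-2.3), Perp (-2) and Postn (-4.62). Signalling genes included Ltbp3 (3.21), Apc (2.48), Lrp5 (6.10), Notch2 (4.23) and Cxcl14 (4.76) above 0, and Smad4 (-3.79), Dkk3 (-2.53) and Gas1 (-5.39) below 0.

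Among the 12 largest differences towards EpdSCs, the cell type difference was larger in the mutant for Il1rn (-5.57), Spg21 (-6.64), Ackr3 (-4.59), Inafm2 (-5.21), Zfp954 (-6.87), Ptger4 (-5.02) and Mpzl3 (-5.80). Towards HFSCs it was larger in the mutant for Gm38394 (7.46), with a WT difference of 0.63. For H1f4 (9.84) the WT difference had the opposite sign, at -1.32. The remaining values were -8.18 for Fos, -2.60 for Klf6, 3.51 for Bag3, 8.81 for Mki67, 5.62 for Cenpf, 3.85 for Top2a and 5.38 for Cox6c.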

How the results depend on the processing

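The test of the 4 libraries called 0 genes in both directions also with other pseudocounts, scalings, no intensity trend, no fold limit and the replicate block. Genes higher in HFSCs and in EpdSCs numbered 456 and 287 with a mean of at least 10 CPM, 159 and 82 with edgeR, 2335 and 1249 in the fit of 8 libraries, 144 and 207 with the length and GC trend removed, and 46 and 20 at an adjusted p under 0.1. Leaving out 1 library gave 0 to 95 and 0 to 696, with 95 and 696 without the first and 64 and 348 without the second Msx2-KO EpdSC library, the lone one being assumed to vary like the other group. The cause of these changes was not tested. The replicate block called 0 genes. Deviations of same-numbered libraries correlated at 0.00755 over 12011 genes. This value cannot show whether same-numbered libraries came from the same mice, which the sources do not say.

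The median of the HFSC identity list (3.20) was 2.92 with 10 CPM added, 2.22 with TMM, 2.34 with median-of-ratios factors, 2.97 without the 100 most abundant genes, 1.65 with all genes of both tables in the sum, 2.92 with the length and GC trend removed, and 3.09 to 3.40 on leaving out 1 library. The suprabasal median (1.47) ran from -0.43, without the second Msx2-KO HFSC library, to 1.94. The hemidesmosome median was -0.59 with all genes of both tables.

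With all genes of both tables in the sum, the difference turned to -0.056 for Msx2, -0.96 for Krt10, -0.033 for Vdr, -0.83 for Col17a1 and -0.32 for Scd1. It turned with TMM to -0.42 for Krt10 and -0.29 for Col17a1, with median-of-ratios factors to -0.29 and -0.15, and with the trend removed to -0.49 for Col17a1 and 0.025 for Itgb1. On leaving out 1 library it ran from -0.43 to 1.63 for Krt10, -1.44 to 0.57 for Krt1, -0.43 to 1.90 for Col17a1, -0.73 to 0.20 for Trp63 and -2.25 to 0.15 for Sparc. Genes whose cell type difference differed between genotypes (796) numbered 1213 with 10 CPM added and 0 to 2955 on leaving out 1 library.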
